A study of Mus musculus with 6 samples.

Results

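The 39 Hox cluster genes, all protein-coding genes named Hoxa, Hoxb, Hoxc or Hoxd with a number, were followed in Msc80, a mouse Schwann cell line. They were picked by symbol alone from the 54109 Ensembl gene IDs listed in each count table. The groups were 3 control cultures, with wild-type Sox10, and 3 Sox10ko cultures, edited with CRISPR/Cas9 so that the glial transcription factor Sox10 is no longer made. All cultures were grown in serum-containing medium, and polyadenylated RNA was read from a stranded library. The labels name a cell clone for each edited culture without saying how many independent clones there were, so the loss of Sox10 and the history of a clone cannot be told apart. Cultures are called biological replicates in the labels, and the p-values below measure only the spread between these samples.

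Hox genes encode homeodomain transcription factors that give cells along the body their regional identity. They lie in 4 clusters in which gene order follows the order of use from head to tail: low-numbered genes mark anterior levels and high-numbered genes posterior ones. Genes with the same number in different clusters (paralogues) descend from a common ancestral gene. Adult cells usually keep part of the Hox pattern of the level they came from, held by Polycomb repression and Trithorax activation. Schwann cells are the glia of peripheral nerves and arise from neural crest cells, which form along most of the body axis.

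In build GRCm38 the Hoxa cluster spans 105 kb of the minus strand of chromosome 6, from 52155590 to 52260880, and holds 11 members. The Hoxb cluster spans 174 kb of the plus strand of chromosome 11 (96194316 to 96368256) with 10 members. Hoxc covers 116 kb of the plus strand of chromosome 15 (102921103 to 103036852) and Hoxd 96.8 kb of the plus strand of chromosome 2 (74668310 to 74765142), with 9 members each. In what follows, paralogue groups 1 to 3 are called anterior, 4 to 8 central and 9 to 13 posterior.

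The promoters of 3 members are shown as examples. Hoxa7 and Hoxa5 have the highest and the third highest log2 fold change, and Hoxd8 is a highly read member that did not pass the test. The value of Hoxd8, -0.23, is not the lowest, since Hoxa2 stood at -0.32. Each line is the 300-base window from 250 bases before to 50 bases after the transcription start in RefSeq on GRCm38.p6, 5′ to 3′ on the gene's strand. CG dinucleotides, the sites of DNA methylation, are in capitals. The Hoxa7 window is chr6:52218524-52218823 (minus strand), the Hoxa5 window chr6:52204538-52204837 (minus) and the Hoxd8 window chr2:74704365-74704664 (plus).
Hoxa7: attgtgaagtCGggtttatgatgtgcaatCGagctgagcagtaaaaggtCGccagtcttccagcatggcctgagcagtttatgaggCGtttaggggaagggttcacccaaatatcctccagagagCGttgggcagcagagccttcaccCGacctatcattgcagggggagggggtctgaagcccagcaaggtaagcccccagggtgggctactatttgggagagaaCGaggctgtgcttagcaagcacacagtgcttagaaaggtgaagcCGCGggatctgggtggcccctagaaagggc
Hoxa5: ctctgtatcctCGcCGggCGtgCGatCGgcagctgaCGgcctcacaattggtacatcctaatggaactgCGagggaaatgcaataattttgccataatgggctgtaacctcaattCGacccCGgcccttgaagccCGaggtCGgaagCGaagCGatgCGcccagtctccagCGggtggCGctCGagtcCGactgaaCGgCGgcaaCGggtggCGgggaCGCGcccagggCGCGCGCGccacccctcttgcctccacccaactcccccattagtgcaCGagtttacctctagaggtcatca
Hoxd8: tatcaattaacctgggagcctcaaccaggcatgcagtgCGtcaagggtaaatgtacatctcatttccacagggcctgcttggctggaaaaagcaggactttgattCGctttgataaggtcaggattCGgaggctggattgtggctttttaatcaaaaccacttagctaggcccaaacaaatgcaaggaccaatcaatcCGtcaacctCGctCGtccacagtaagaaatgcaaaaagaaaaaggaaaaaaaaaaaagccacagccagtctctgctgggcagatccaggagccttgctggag
These windows hold 9, 29 and 6 CG dinucleotides. RefSeq windows were matched for 24 promoters of 22 members, with a median of 14.5 CG against 7.00 in all 32841 mouse promoters of the table. The median was 12.5 in the promoters of called members, 14.0 in those of members tested without a call and 22.0 in those of members with too few reads to test.

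The libraries held between 32328618 and 41834431 counted reads. Levels are given as CPM, counts per 1000000 reads after scaling of the libraries by the TMM method, or as RPKM, the same per kilobase of exonic sequence, where genes are compared with each other. Fold changes are log2 of Sox10ko over control with their SE, from edgeR's quasi-likelihood F test over the whole table, and a gene is called where its Benjamini-Hochberg adjusted p is under 0.05. Of 15427 genes with enough reads to test, 2664 were called higher in Sox10ko (17.3%) and 2275 lower (14.7%), and the median log2 fold change over all tested genes was 0.02. Control libraries held 606, 627 and 617 CPM of Sox10, and edited libraries 82.3, 67.5 and 116 CPM, so the transcript was reduced in each edited culture and still read in all of them.

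In Sox10ko cultures, Hoxa4, Hoxa5, Hoxa7, Hoxa9 and Hoxa10, Hoxc8, Hoxc9, Hoxc10 and Hoxc13, and Hoxb8 and Hoxb13 rose, and no Hox gene was called lower. Hoxa7 rose 13-fold, and Hoxa5, Hoxb13 and Hoxc8 rose more than 4-fold. The members with the highest levels, Hoxb9, Hoxd8 and Hoxb6, passed no threshold in either direction. Of the 39 members, 27 were tested and 11 were called higher, which is 40.7% of those tested beside 17.3% of all tested genes. The median log2 fold change of the tested members was 0.35, 24 values were positive and 3 negative. With edgeR 0 members were lower, both after adjustment and at an unadjusted p under 0.05, where 20.0% of all tested genes were. DESeq2 and limma-voom each also called 11 higher and 0 lower. The count of 11 is not free of the filter on low reads: Hoxa7, Hoxa9 and Hoxc8 reached its minimum in all 3 Sox10ko libraries but in at most 1 control library, so they could enter the test only by being higher in Sox10ko. Among the 24 tested members that reached the minimum in all control libraries, 8 were called higher.

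**Figure D1:**
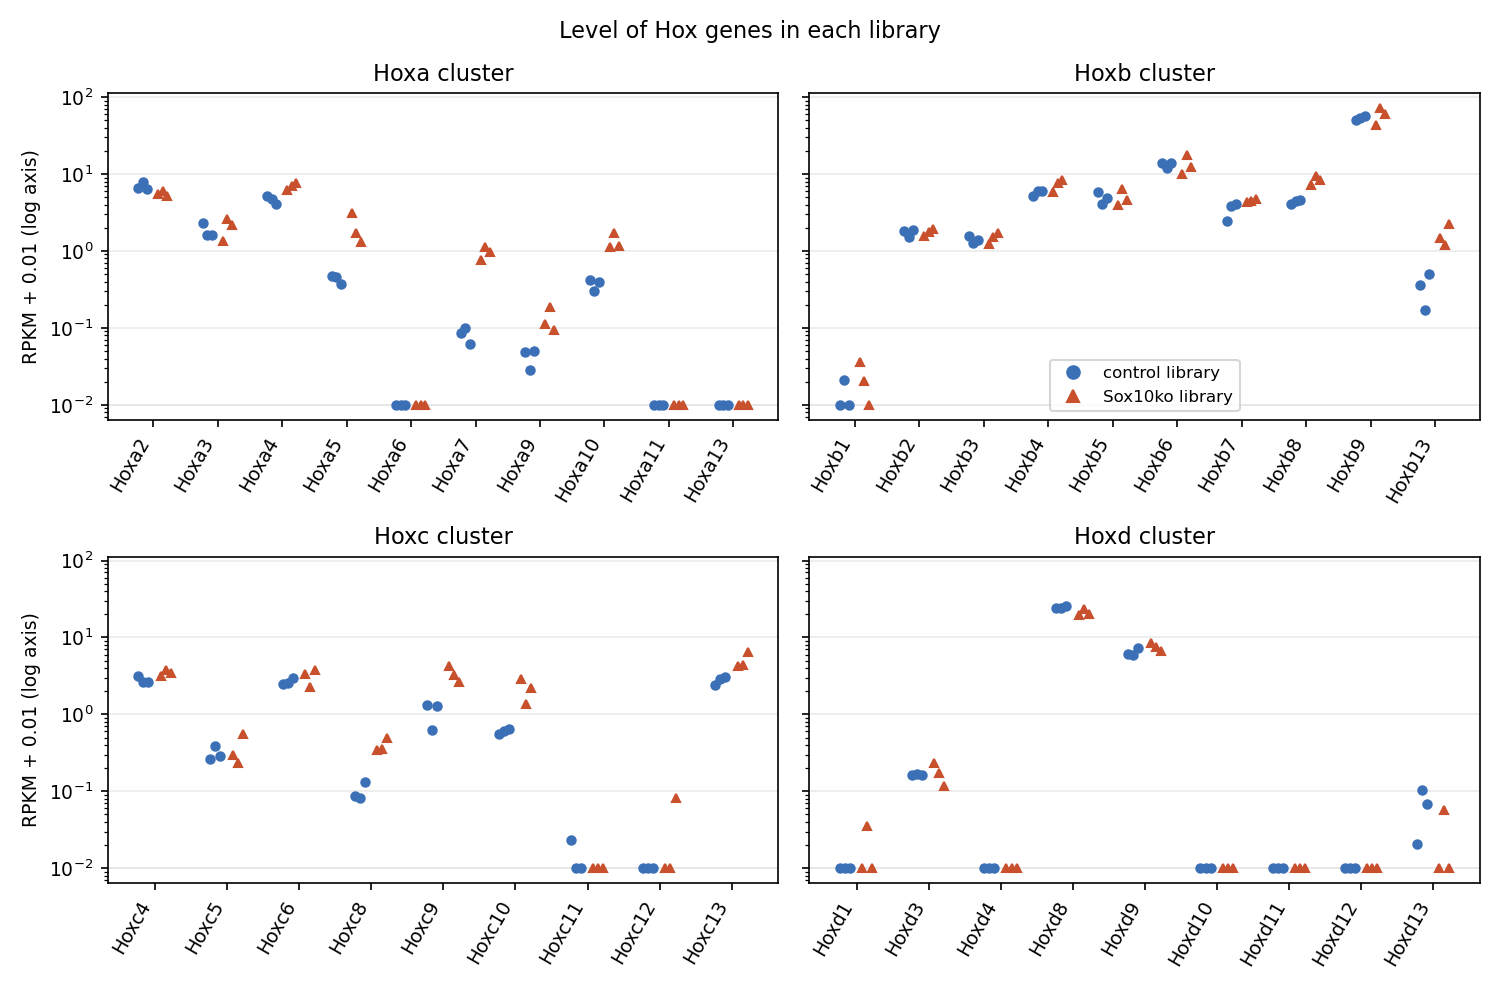
Level of the Hox genes in each library, in RPKM plus 0.01 on a log axis, with 1 panel per cluster and genes in paralogue order; circles are control libraries and triangles Sox10ko libraries. Hoxb9 and Hoxd8 lead in both groups, the triangles of Hoxa5, Hoxa7, Hoxa9, Hoxa10, Hoxb13, Hoxc8, Hoxc9 and Hoxc10 lie clear of the circles, and 7 genes sit on the floor line in all 6 libraries.

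The Hoxa cluster held 5 of the 11 called genes. Hoxa7 (ENSMUSG00000038236), a gene of thoracic levels, was read at 0.217, 0.256 and 0.146 CPM in control and at 2.19, 3.22 and 2.77 CPM in Sox10ko. Every Sox10ko library lay far above every control library, and control values rest on few reads. The fold change was 3.71 ± 0.33 on the log2 scale (edgeR adjusted p = 0.000357), with a 95% confidence interval from 7.64-fold to 22.3-fold.

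Hoxa5 (ENSMUSG00000038253), known for its part in lung, tracheal and cervical development, was read at 0.868, 0.845 and 0.684 CPM in control. In Sox10ko it stood at 5.81, 3.19 and 2.44 CPM, all above control, with replicate 1 at 2.38 times replicate 3. The log2 fold change was 2.25 ± 0.37 (edgeR adjusted p = 0.0042). Hoxa10 (ENSMUSG00000000938), a posterior gene known for patterning of the uterus and lumbar spine, went from 1.33, 0.948 and 1.27 CPM to 3.60, 5.52 and 3.71 CPM. Its groups did not overlap, and its log2 fold change was 1.85 ± 0.28 (edgeR adjusted p = 0.00269).

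Hoxa9 (ENSMUSG00000038227), a posterior gene known for its part in blood progenitors and leukaemia, was at 0.217, 0.102 and 0.220 CPM in control and at 0.569, 0.986 and 0.473 CPM in Sox10ko. The groups were separate but both near the limit of what was read. Its log2 fold change was 1.90 ± 0.45 (edgeR adjusted p = 0.018), and the call was lost without any 1 of the control libraries or without Sox10ko replicate 2, with adjusted p between 0.0518 and 0.0623. Hoxa4 (ENSMUSG00000000942), which patterns cervical vertebrae, was at 8.19, 7.45 and 6.54 CPM in control and at 9.77, 11.3 and 12.1 CPM in Sox10ko. All Sox10ko values were higher, by the smallest step among the called members, with a log2 fold change of 0.58 ± 0.16 (edgeR adjusted p = 0.0332). Hoxa4 lost its call without any 1 of the control libraries and without Sox10ko replicate 2 or 3, where the adjusted p ran from 0.0649 to 0.139.

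In the Hoxc cluster 4 genes were called, and all of them lie on the posterior side of the uncalled Hoxc4, Hoxc5 and Hoxc6 in paralogue order. Hoxc8 (ENSMUSG00000001657), which acts in motor neurons and skeleton of the brachial and thoracic level, was at 0.217, 0.205 and 0.342 CPM in control. It reached 0.959, 0.962 and 1.37 CPM in Sox10ko, with no overlap and a log2 fold change of 2.09 ± 0.34 (edgeR adjusted p = 0.00396). Hoxc9 (ENSMUSG00000036139), which sets thoracic identity of motor neurons, was the most abundant of those with a change above 2-fold: 3.17, 1.51 and 3.08 CPM in control against 10.3, 7.84 and 6.45 CPM in Sox10ko. The lowest Sox10ko value was above the highest control value, and the log2 fold change was 1.66 ± 0.33 (edgeR adjusted p = 0.00903).

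Hoxc10 (ENSMUSG00000022484), a lumbar-level gene, was read evenly in control at 1.03, 1.15 and 1.20 CPM and unevenly in Sox10ko at 5.51, 2.58 and 4.14 CPM. Its log2 fold change was 1.85 ± 0.32 (edgeR adjusted p = 0.00492), and 91.3% of its exonic bases are free of the overlapping model of Hoxc5. Hoxc13 (ENSMUSG00000001655), known for hair and nail formation, was at 5.99, 7.15 and 7.42 CPM in control and at 10.3, 10.9 and 16.0 CPM in Sox10ko. The groups were separate and the log2 fold change was 0.86 ± 0.21 (edgeR adjusted p = 0.0205). Its call was lost without any 1 of the control libraries (adjusted p from 0.0584 to 0.0804).

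Of the 9 tested Hoxb genes, Hoxb8 and Hoxb13 were called. Hoxb8 (ENSMUSG00000056648), known in blood and microglial lineages, had the narrowest error of the called members: 10.6, 11.9 and 12.2 CPM in control and 18.8, 24.9 and 21.9 CPM in Sox10ko. No library overlapped the other group, and the log2 fold change was 0.92 ± 0.15 (edgeR adjusted p = 0.00358). Hoxb13 (ENSMUSG00000049604), a gene of the tail end of the axis and of the prostate, lies at the far posterior end of its cluster. It was at 0.786, 0.359 and 1.10 CPM in control and at 3.27, 2.65 and 4.88 CPM in Sox10ko. These groups were separate as well, with a log2 fold change of 2.26 ± 0.44 (edgeR adjusted p = 0.00823).

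The Sox10ko replicates did not share 1 order across the called genes. Replicate 1 was highest for Hoxa5, Hoxc9 and Hoxc10, replicate 2 for Hoxa7, Hoxa9, Hoxa10 and Hoxb8, and replicate 3 for Hoxa4, Hoxb13, Hoxc8 and Hoxc13. The highest Sox10ko library stood between 1.24 times (Hoxa4) and 2.38 times (Hoxa5) the lowest. Hoxa5, Hoxa7, Hoxa10, Hoxb8, Hoxb13, Hoxc8, Hoxc9 and Hoxc10 kept their call without each library in turn.

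Calls were also counted by position in the cluster. Of the anterior members 6 were tested and 0 called with edgeR (0 at an unadjusted p under 0.05, and 0 with DESeq2 and limma-voom), with a median log2 fold change of 0.07. Among 13 tested central members 5 were called (38.5%, beside 17.3% of all tested genes called higher), with a median of 0.35. Among 8 tested posterior members 6 were called (75.0%), with a median of 1.76 and all 8 values positive. Of these, the central Hoxa7 and Hoxc8 and the posterior Hoxa9 could enter the test only by being higher in Sox10ko. In Hoxa the anterior Hoxa2 and Hoxa3 were uncalled and every tested member from Hoxa4 to Hoxa10 was called. Hoxb departs from this order, since Hoxb9 was not called between Hoxb8 and Hoxb13, and in Hoxd none of the 3 tested members (Hoxd3, Hoxd8 and Hoxd9) was called by edgeR, DESeq2 or limma-voom, or had an unadjusted edgeR p under 0.05. Differences between position classes and between clusters were not tested.

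**Figure D2:**
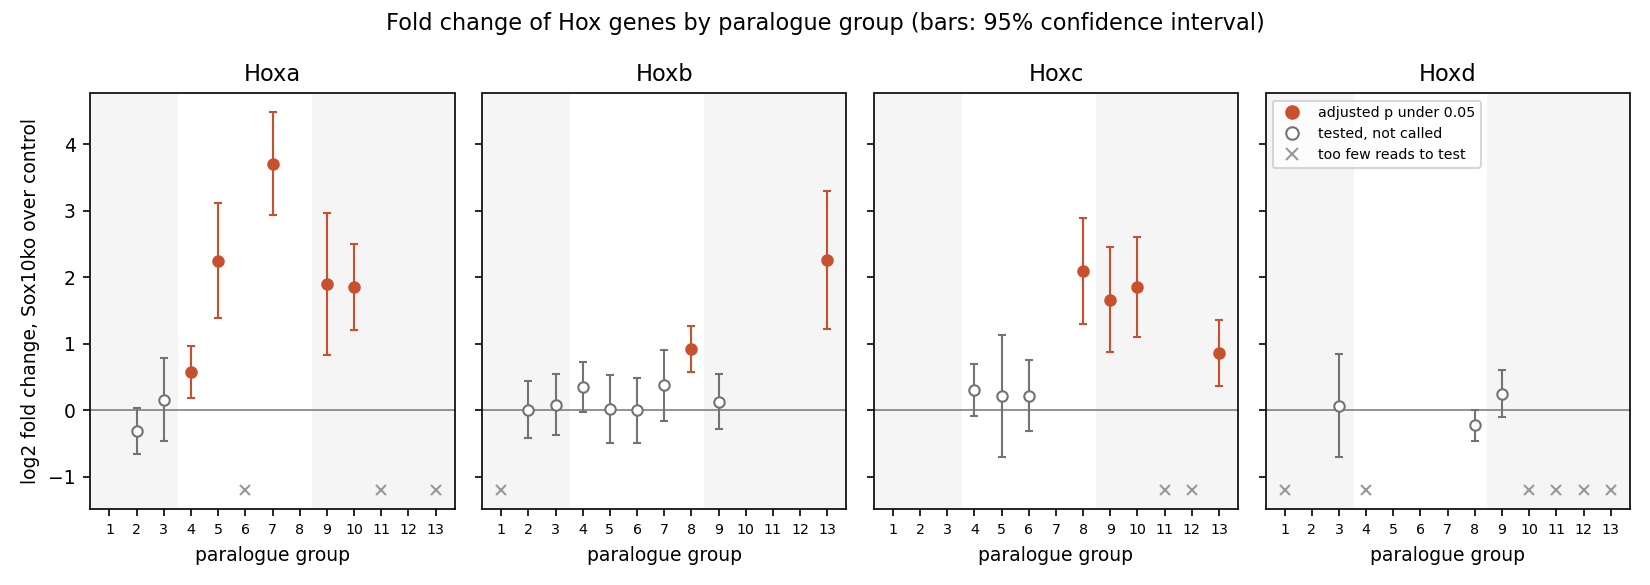
Log2 fold change of Sox10ko over control (vertical axis) by paralogue group (horizontal axis) in each cluster, for the members reported singly; bars are 95% confidence intervals, filled points are called, open points are tested without a call and crosses are members with too few reads to test, and grey bands mark anterior and posterior groups. Filled points begin at group 4 in Hoxa and at group 8 in Hoxb and Hoxc, and the Hoxd panel holds none.

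Calls differed within some paralogue groups and not within others. Hoxa10 and Hoxc10 were both called, each at 1.85, and all tested members of groups 2, 3 and 6 were uncalled. In group 4, Hoxa4 was called at a log2 fold change of 0.58 while Hoxb4 stood at 0.35 ± 0.16 (edgeR adjusted p = 0.134) and Hoxc4 at 0.30 ± 0.16 (0.202). The Hoxb4 call turned with a library: without Sox10ko replicate 1 its adjusted p was 0.0385, in a range up to 0.344 over the alternatives. In group 9, Hoxa9 and Hoxc9 were called at 1.90 and 1.66, whereas Hoxb9 stood at 0.13 and Hoxd9 at 0.25. Group 8 held the called Hoxb8 and Hoxc8 and the uncalled Hoxd8, whose value was negative. In group 5, Hoxa5 was called at 2.25 and Hoxb5 stood at 0.02. In group 13, Hoxb13 and Hoxc13 were called, and Hoxa13 and Hoxd13 had too few reads. The differences between paralogues were not tested.

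The highest levels belonged to genes without a call. Hoxb9 (ENSMUSG00000020875), a gene of thoracic levels, led all members in both groups. Its control libraries held 129, 139 and 145 CPM and its Sox10ko libraries 112, 184 and 157 CPM. The Sox10ko values lay on both sides of the control values, the log2 fold change was 0.13 ± 0.18 (edgeR adjusted p = 0.603), and the 95% interval ran from 0.825-fold to 1.46-fold. Hoxd8 (ENSMUSG00000027102) was at 67.3, 66.1 and 70.7 CPM in control and at 53.6, 65.0 and 55.6 CPM in Sox10ko. All Sox10ko values were below all control values but by a small step, with a log2 fold change of -0.23 ± 0.10 (edgeR adjusted p = 0.135).

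Hoxb6 (ENSMUSG00000000690) was at 27.4, 23.6 and 27.7 CPM in control and at 19.6, 34.4 and 24.5 CPM in Sox10ko, with both means at 26.2 CPM. Its Sox10ko libraries were wider apart than its control libraries and covered the same range. Hoxb4 (ENSMUSG00000038692), used to expand blood stem cells, was at 13.4, 15.3 and 15.2 CPM against 15.2, 19.6 and 21.3 CPM. Hoxd9 (ENSMUSG00000043342), a limb and lumbar gene, was at 13.1, 12.5 and 15.4 CPM against 18.3, 15.9 and 14.4 CPM. In both genes the groups overlapped.

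Over all 16 tested members without a call, the log2 fold change lay between -0.32 and 0.63, with a median of 0.15, so the highest lay above that of the called Hoxa4. The 95% interval excluded a 2-fold change in either direction for 14 of the 16. Hoxa2, which patterns the hindbrain and the second branchial arch, was below control in every Sox10ko library: 11.7, 13.9 and 11.4 CPM against 9.65, 10.8 and 9.32 CPM. Its adjusted p with edgeR was 0.147. Hoxb7 was above control in every Sox10ko library, at 6.71, 6.85 and 7.23 CPM against 3.77, 5.94 and 6.27 CPM, with an edgeR adjusted p of 0.247. In all, 12 of the 27 tested members had every Sox10ko library above every control library, which 25.5% of all tested genes had. The 12 include Hoxa7, Hoxa9 and Hoxc8, which could enter the test only by being higher in Sox10ko. In 2 tested members every Sox10ko library lay below, beside 23.8% of all tested genes.

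Per length of transcript, Hoxb9 stood at 53.5 ± 3.00 RPKM in control (SD, n = 3), Hoxd8 at 24.8 ± 0.869 and Hoxb6 at 13.4 ± 1.18, and their control libraries did not overlap with each other. Below them the neighbours in the control order, Hoxa2 at 6.95 ± 0.758, Hoxd9 at 6.39 ± 0.708 and Hoxb4 at 5.71 ± 0.409 RPKM, each lay within 1 SD of the next. The called members stood lower, from 0.0322 RPKM for Hoxa9 to 4.64 RPKM for Hoxa4. Hoxb8 went from the 9th place of the control order to the 4th place in Sox10ko, at 8.30 ± 1.17 RPKM (SD, n = 3), and Hoxc13 from the 12th to the 9th at 5.05 ± 1.27. Hoxb9, Hoxd8 and Hoxb6 kept the first places in both orders.

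Summed over its members, the Hoxa cluster stood at 16.0, 15.6 and 13.6 RPKM in control and at 18.7, 21.9 and 19.9 RPKM in Sox10ko, and the Hoxc cluster at 10.2, 9.79 and 10.9 against 18.4, 15.6 and 19.7. The groups were separate in both clusters, at 1.34 and 1.74 times the control mean. In Hoxb the sums of 85.6, 87.4 and 93.5 RPKM in control overlapped with 79.3, 121 and 105 RPKM in Sox10ko, and most of each sum was Hoxb9. Hoxd stood at 31.4 ± 1.57 against 28.9 ± 2.19 RPKM (SD, n = 3), again with overlap. The Hoxd ratio follows Hoxd8: on the log2 scale it was -0.12, and 0.24 without that gene. The Hoxa ratio of 0.42 became 0.84 without Hoxa2.

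All Hox genes together summed to 146 ± 4.82 RPKM in control and 169 ± 22.9 RPKM in Sox10ko (SD, n = 3), with overlapping libraries. The 11 called members, chosen by this same contrast, made up 10.2% of the control sum and 19.1% of the Sox10ko sum, while Hoxb9 held 36.8% and 34.7% and Hoxd8 17.0% and 12.5%. All posterior members summed to 65.1 ± 3.92 and 79.9 ± 12.6 RPKM (SD, n = 3) with overlap. Without Hoxb9 they summed to 11.2, 10.5 and 13.1 RPKM in control and to 22.6, 19.6 and 21.6 RPKM in Sox10ko. The sums without Hoxb9 did not overlap. Leaving out Hoxb9 was not planned, and the sum holds the 6 posterior members called by this same contrast, so its separation is no further support. Anterior members stood at 12.8 ± 0.668 and 12.2 ± 1.57 RPKM (SD, n = 3) with overlap. In a bulk culture, more cells that use a gene and more RNA of it per cell cannot be told apart.

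**Figure D3:**
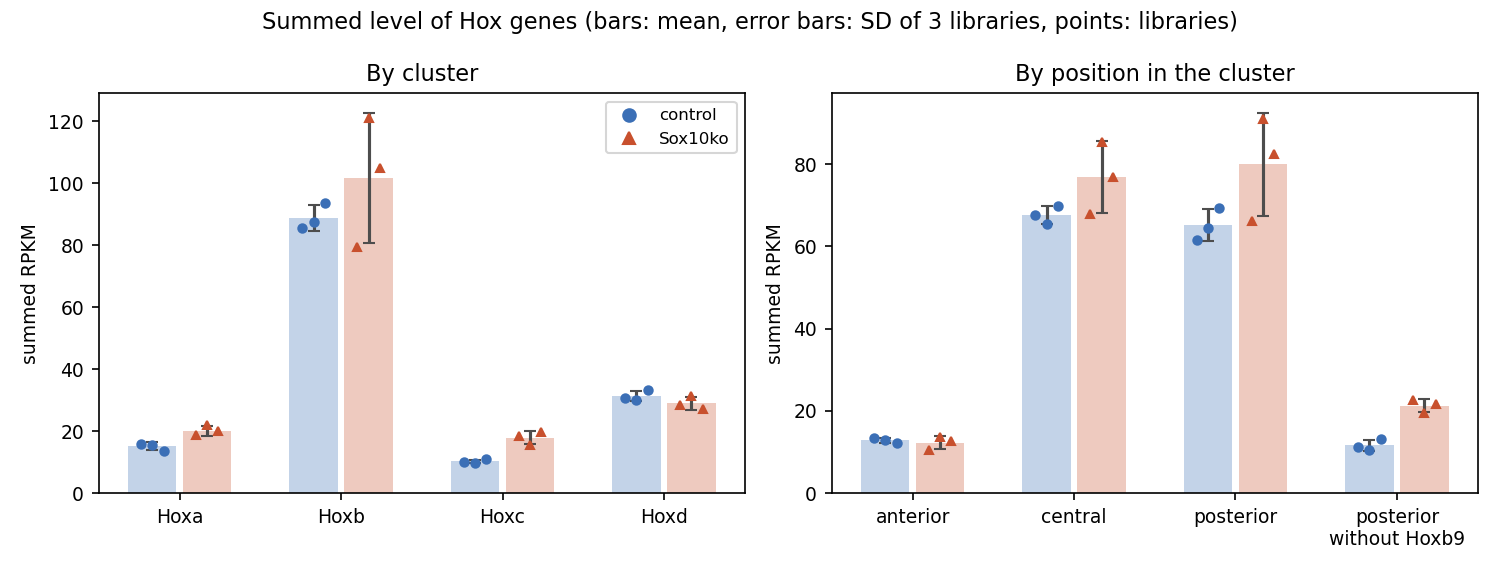
Summed RPKM of the Hox genes of each cluster (left) and of each position class (right); bars are means of 3 libraries, error bars the SD, circles control libraries and triangles Sox10ko libraries. The Sox10ko points lie clear of control for Hoxa, Hoxc and the posterior genes without Hoxb9, and overlap with control elsewhere. The sum without Hoxb9 was not planned and holds the 6 posterior genes called by this same contrast.

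A further 12 members had too few reads to test. Hoxa6, Hoxa11, Hoxa13, Hoxd4, Hoxd10, Hoxd11 and Hoxd12 had 0 reads in all 6 libraries. At this depth 1 read was worth 0.0235 to 0.0300 CPM, and a count of 0 allows a level of up to 3 reads, or 0.0704 to 0.0899 CPM, counting error only. Hoxb1 had 0, 1 and 0 reads in control and 2, 1 and 0 in Sox10ko. Hoxc11 had 1 read in a control library, Hoxc12 had 3 in Sox10ko replicate 3 and Hoxd1 had 2 in Sox10ko replicate 2. Hoxd13, the most posterior Hoxd gene and a limb digit gene, had 1, 9 and 6 reads in control and 0, 5 and 0 in Sox10ko. The posterior Hoxd genes beyond Hoxd9 were at or near 0 in both groups, and so were the posterior Hoxa genes beyond Hoxa10.

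Annotated gene models overlap in these clusters, and the strand setting of the counting is not given in the sources used here. Hoxd3 and Hoxd4 share much of their models on the same strand, with 37.7% and 47.7% of their exonic bases free of other genes of that strand, so the 0 of Hoxd4 and the level of Hoxd3 are uncertain. On the opposite strand, Hoxb3os covers much of Hoxb3, where 47.1% of bases are free of any other gene. Among the called members, Hoxa7 (79.6% free, beside Hoxaas3) and Hoxa4 (84.0%, beside Gm29430) overlap antisense genes, Hoxa9 has 98.5% free beside Mir196b, and Hoxa5, Hoxa10, Hoxb8, Hoxb13, Hoxc8, Hoxc9 and Hoxc13 overlap no other exon.

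The clusters also contain 46 other annotated genes, mostly noncoding, of which 17 were tested. Of those 17, 29.4% were called higher, beside 17.3% of all tested genes. In Hoxa 5 of 8 were called higher, in Hoxb 0 of 6 and in Hoxd 0 of 3, and in Hoxc none had enough reads. None was called lower, and at an unadjusted edgeR p under 0.05 the counts were 5, 0 and 1 higher and 0 lower. DESeq2 called 4 higher in Hoxa and limma-voom 5, and neither called any in Hoxb or Hoxd. The most abundant, the noncoding Gm53 between Hoxb9 and Hoxb13, stood at 72.7 ± 7.98 CPM in control and 69.2 ± 15.4 in Sox10ko (SD, n = 3). The locus of Mir196a-1 was at 6.64 CPM in both groups, Hoxb3os at 3.79 and 3.81 CPM and Hoxd3os1 at 3.30 and 4.54 CPM. Gm15050, antisense in Hoxa, rose from 1.55 ± 0.313 to 3.29 ± 0.848 CPM (edgeR adjusted p = 0.0246), and 5730596B20Rik stood at 2.12 and 2.73 CPM without a call. The other called genes, named after their values were seen, were Hotairm1, Gm27477, Gm27861 and Hoxaas3, with log2 fold changes of 1.39, 1.24, 1.30 and 0.96. Gm27861 lies within the span of Hotairm1 and Gm27477 just past its end, so the 5 calls need not mark 5 separate loci. Gm27861 reached the filter minimum in 1 control library, so it could enter the test only by being higher in Sox10ko. Hotairm1 is a noncoding RNA read from the strand opposite to the Hoxa genes. It was at 1.06, 0.820 and 1.34 CPM in control and at 2.34, 3.85 and 2.27 CPM in Sox10ko (edgeR adjusted p = 0.0158).

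**Figure D4:**
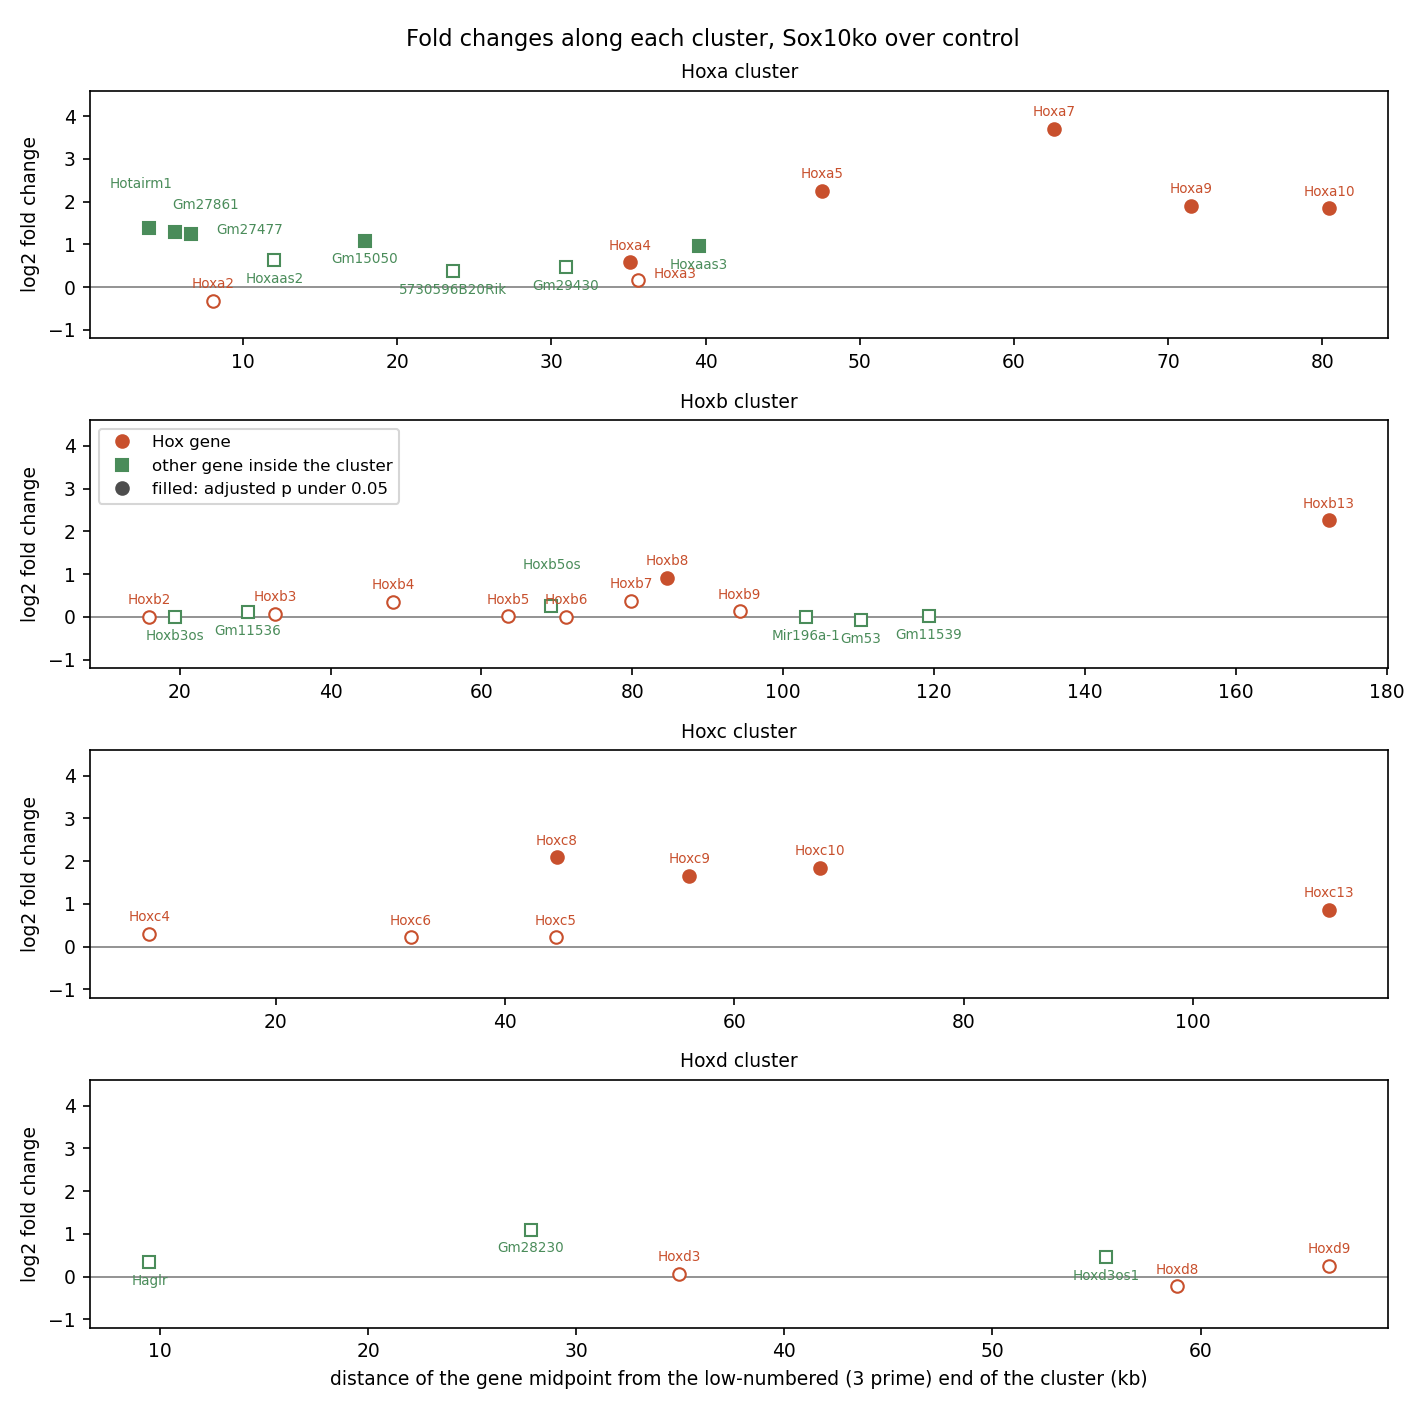
Log2 fold change of Sox10ko over control (vertical axis) against the distance of each gene's midpoint from the low-numbered end of its cluster in kb (horizontal axis); circles are tested Hox genes, squares other tested genes inside the cluster, and filled symbols are called. By midpoint, the called Hoxa genes from Hoxa5 on lie to the right of every called square, though the called Hoxaas3 reaches over exons of Hoxa7. In Hoxb the squares lie near 0.

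Genes outside the clusters were counted in the same way. Among the 32 flanking genes, the 4 nearest tested protein-coding genes on each side of each cluster, 6 were called higher and 4 lower, shares near the 17.3% and 14.7% of all tested genes, with a median log2 fold change of -0.05. Their distances from the cluster ran from 28.9 kb (Ttll6) to 1067 kb (Agps), so many are not immediate neighbours. Lowest in adjusted p was Nfe2l1, a transcription factor of proteasome genes 449 kb from Hoxb (1.11 ± 0.14, edgeR adjusted p = 0.00121). Next was Skap2, an adaptor protein gene 143 kb from Hoxa (1.04 ± 0.15, 0.00224). On the sides of Hoxd, the endoplasmic reticulum gene Lnpk at 88.9 kb (-0.63 ± 0.10, 0.00305) fell. The RNA-binding protein gene Hnrnpa3, 894 kb from Hoxd, fell as well (-0.53 ± 0.09, 0.00516). The median log2 fold change of all tested genes was 0.10 on chromosome 6, 0.07 on chromosome 11, -0.08 on chromosome 15 and 0.05 on chromosome 2. With each chromosome's median removed, the count of called Hox genes was again 11.

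Hox proteins bind DNA with partners of the TALE homeodomain class. All 9 listed TALE genes were tested, with a median log2 fold change of -0.15. Of them 2 rose (22.2%, beside 17.3% of all tested genes) and 2 fell (beside 14.7%). Meis3 rose from 11.7 ± 0.564 to 20.5 ± 1.66 CPM (SD, n = 3; edgeR adjusted p = 0.0031). Pbx3 fell from 43.6 to 29.6 CPM (0.0137) and Pknox1 from 34.7 to 23.0 CPM (0.0325).

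Among the Polycomb genes, whose products keep Hox genes silent, 28 of 31 were tested, 6 rose and 6 fell, and the median was -0.03. The share that rose, 21.4%, and the equal share that fell stand beside 17.3% and 14.7% of all tested genes. The methyltransferase gene Ezh2 fell from 169 ± 7.78 to 86.7 ± 22.2 CPM (SD, n = 3; edgeR adjusted p = 0.00685), while its homologue Ezh1 rose from 16.5 to 27.1 CPM (0.00522). Cbx2, a reader of the Polycomb mark, fell from 24.0 to 13.6 CPM (0.00718). Phf1 rose at 0.52 ± 0.11 on the log2 scale, Pcgf5 rose at 0.88 ± 0.19, and Pcgf6 fell by 0.49. Of 18 tested Trithorax and H3K27 demethylase genes, whose products favour active chromatin, 0 rose and 4 fell with edgeR (Kmt2c, Psip1, Men1 and Kdm6a), with a median of -0.23. DESeq2 and limma-voom also called 0 higher and 4 lower, and the unadjusted edgeR counts were 0 and 6. Among 10 tested genes of CTCF and cohesin, which fold chromatin into domains, 0 rose and 5 fell (Stag1, Rad21, Smc3, Ctcf and Pds5b) with edgeR, with a median of -0.42. There 0 rose at an unadjusted p, with DESeq2 or with limma-voom, and 7, 7 and 5 fell. Of all tested genes edgeR called 17.3% higher and 14.7% lower, and 20.0% were lower at an unadjusted p under 0.05. These shares stand beside the Trithorax and the cohesin counts alike.

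Retinoic acid is a known inducer of anterior Hox genes. Of 15 tested genes of its pathway 5 rose (33.3%, beside 17.3% of all tested genes) and 1 fell (beside 14.7%), with a median of 0.53. Aldh1a1, which makes retinoic acid, rose from 0.908 ± 0.127 to 13.1 ± 4.14 CPM (SD, n = 3; edgeR adjusted p = 0.000225), and Aldh1a3, with the same activity, fell from 3.47 to 0.947 CPM (0.0347). Cyp26b1, which degrades retinoic acid, rose from 80.9 to 195 CPM (0.00261). The receptor genes Rara and Rarg rose at 0.53 and 0.72 on the log2 scale, and Stra6, a retinol uptake gene, from 0.824 ± 0.0832 to 17.2 ± 17.6 CPM, with an SD as large as its mean in Sox10ko. Of 13 Cdx, Evx and other Hox-related homeobox genes only Gbx1 was tested, without a call. Among 11 tested positional transcription factors of trunk, head and limb, 4 rose (36.4%), Tbx18, Emx2 and Otx1 among them, and Tbx3 fell.

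**Figure D5:**
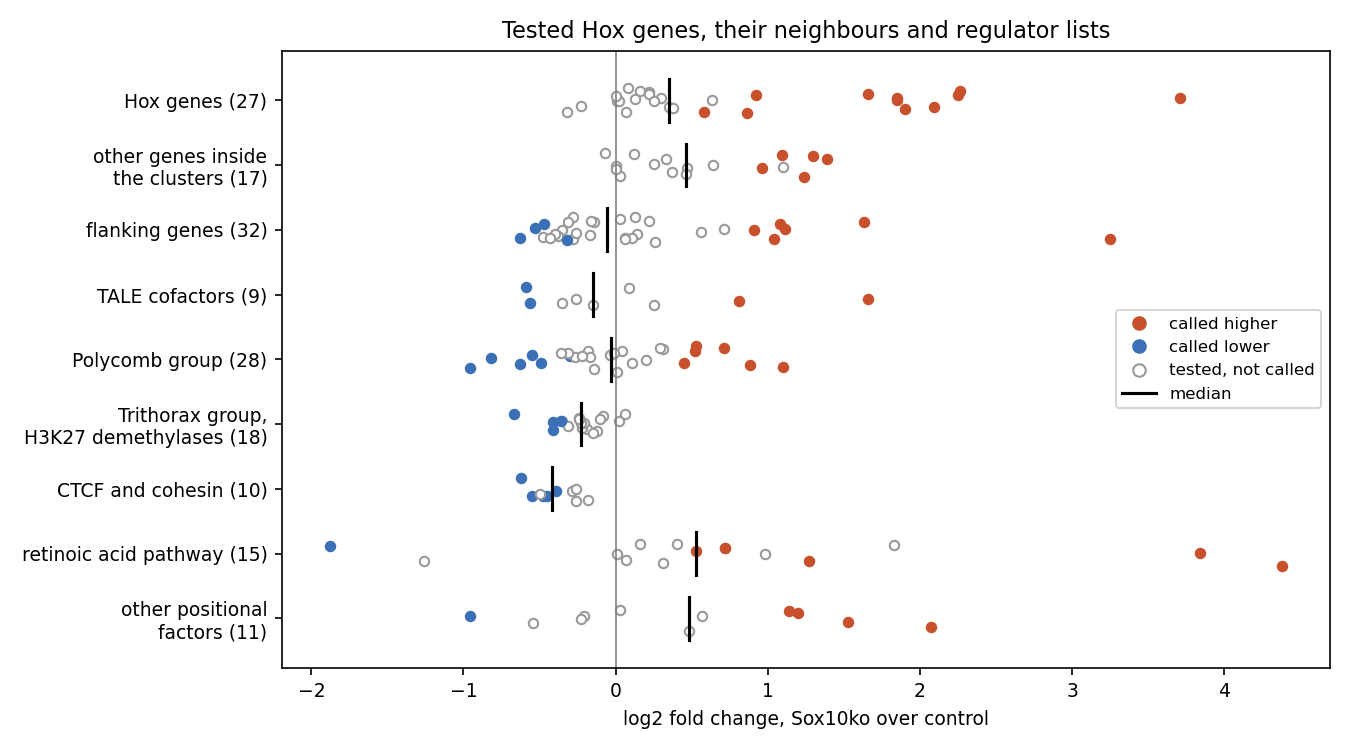
Log2 fold change of Sox10ko over control for each tested gene (points; red called higher, blue called lower, open not called) in the Hox set, its neighbours and lists of regulators, with the number tested in brackets and the median as a black bar. The Hox points reach from -0.32 to 3.71 with none called lower, and those of CTCF and cohesin are all below 0.

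Markers of several cell types also differed between the groups, where 17.3% of all tested genes were called higher and 14.7% lower. All 9 Schwann cell markers fell, from a summed 4783 to 5284 CPM in control libraries to 110 to 159 CPM in Sox10ko libraries. Of 7 fibroblast markers 4 were tested and 3 rose (297 to 490 against 947 to 2115 CPM), and 4 of 5 smooth muscle markers rose (0.759 to 1.03 against 118 to 670 CPM, with Acta2 leading). Epithelial markers stood at 0.0542 to 0.256 CPM in control and at 1.38 to 3.02 CPM in Sox10ko, where Krt8, the only one tested of 5, rose. Endothelial markers ran from 2.13 to 2.30 CPM in control and from 0.389 to 0.728 CPM in Sox10ko. Leukocyte markers ran from 5.43 to 7.24 and from 9.51 to 13.2 CPM with Cd3e at 0. Of 4 endothelial markers 2 were tested and 1 was called lower. Of 4 leukocyte markers 2 were tested and 1 was called higher. Neuronal markers ran from 88.8 to 99.7 and from 54.5 to 70.5 CPM with Rbfox3 at 0. Of the 3 neuronal markers tested Tubb3 fell and the other two had positive log2 fold changes without a call. Melanocyte markers ran from 17.3 to 24.8 and from 14.1 to 28.7 CPM. The part of these markers in the Hox values was not tested.

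Hox clusters carry microRNA genes, and miR-196 is a known repressor of Hoxb8. The RefSeq sequences below (GRCm38.p6) are shown because the miR-196 seed, bases 2 to 8 in capitals, is shared by the copies in 3 clusters. Mir196a-1 in Hoxb and Mir196a-2 in Hoxc give the same mature strand, and Mir196b lies in Hoxa.
miR-196a-5p: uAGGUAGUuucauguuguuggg
miR-196b-5p: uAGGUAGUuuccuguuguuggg
The match to this seed, ACTACCT, was found in the annotated 3′ UTR of 1137 of 12699 tested genes with a UTR, or 8.95%. It was found in 8 of the 27 tested Hox genes: the called Hoxa4, Hoxa5, Hoxa7, Hoxa9 and Hoxc8, and 3 uncalled members, Hoxb6 and Hoxb7 among them. The seed match of miR-10a-5p, a microRNA of the Hoxb cluster, was in 16.9% of the 12699 genes and in 3 of the 27 tested Hox genes, 0 of them called. Mature microRNAs are not measured in these libraries.

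Hoxb8 lacks that exact match but holds a site over the length of the microRNA, which is shown 5′ to 3′ with the bases that form Watson-Crick pairs with miR-196a-5p in capitals. It is from the annotated transcript on GRCm38.
Hoxb8 site: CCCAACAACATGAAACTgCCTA
Of its 22 bases 21 form Watson-Crick pairs and 1 a G:U pair. With at least 20 Watson-Crick pairs required, a bound set after the sites were seen, Hoxb8 was the only 1 of the 12699 tested genes with such a site. Hoxb8 rose in Sox10ko. Reads at the Mir196a-1 locus, at a mean of 6.64 CPM in both groups, do not measure the mature microRNA. The Mir196a-2 and Mir196b loci had 0 reads in all 6 libraries. These matches are descriptions of sequence, and nothing follows from them about binding.

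Promoter windows were searched on both strands for ACAAAG and ACAATG, core forms of the SOX motif that differ from each other in 1 letter and were counted apart. ACAAAG was found in 18.7% of all 32841 promoters and in 6 of 24 Hox promoters, and ACAATG in 12.6% and in 0 of 24. A joint Hox and Pbx motif, TGATTNAT, was found in 3.22% of all promoters and in 2 of 24 (Hoxa2 and Hoxd11). TATAAA was found in 13.6% and in 4 of 24, among them the called Hoxa10 and Hoxb8. Of the 11 called genes only 5 had a window to search, and none of their 6 windows held either SOX form. A window without a match says only that these letters are not in it.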

How the data were processed

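The authors deposited raw read counts per Ensembl gene, 1 table per library. The tools named in the submitters' processing notes are HTSeq, DESeq2 and STAR (2.6.0c), and the build is GRCm38. Not given in the sources used here are tool roles, annotation and strand setting. Libraries were stranded and selected for mRNA, per the labels' protocols.

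Of 54109 IDs, 54042 matched GENCODE M21, which gave symbols, coordinates and exonic lengths. Groups came from titles and genotype labels. Genes were kept by filterByExpr of edgeR 4.0.16 (R 4.3.3; at least 0.249 CPM in 3 libraries), scaled by TMM and tested two-sided with glmQLFit and glmQLFTest, without covariates, adjusted over 15427 genes. The SE is the log2 fold change divided by the square root of F. RPKM uses all exonic bases of a gene, and fits were tested on simulated data. A 3 against 3 exact permutation test cannot go below 0.1, so single sums got no test. Intervals and floors cover counting error only, since reads carry no molecular identifiers, except the edgeR intervals, which cover the spread between libraries. No replicates agreed within sampling noise (chi-square per degree of freedom of 24.7 or more).

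The members, lists and alternatives were chosen with earlier results of these data known. Some genes are not reported here. Named were the other members, with values per library for the 11 called and for the 5 uncalled of highest mean level, others by range with a few chosen after their values were seen. Also named were up to 6 other genes inside the clusters by mean CPM, 4 flanking genes and up to 6 per list by adjusted p. Alternatives were DESeq2 1.42.0 (also its size factors), limma-voom (limma 3.58.1), library size alone, no filter, a mean of at least 5 CPM, chromosome medians removed, a replicate block, and leaving out each library. Promoters and microRNAs came from RefSeq tables (GRCm38.p6), and 3′ UTRs from GENCODE transcripts.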

Additional observations from a re-analysis of the deposited data

How the results depend on the processing

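The count of called Hox genes was 11 with edgeR and again 11 with DESeq2, limma-voom, both other scalings and chromosome medians removed, and 10 without a filter. With a mean of at least 5 CPM it was 4 of 17 tested, since fewer members were tested. It ran from 8 to 12 when 1 library was left out, and 0 members were lower under every alternative run. The count over all genes ran from 2869 (without control replicate 3) to 4681 when a library was left out, and was 4939 with all. On the log2 scale, the summed Hoxa ratio moved from 0.42 to 0.84 without Hoxa2 and the Hoxd ratio from -0.12 to 0.24 without Hoxd8.

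With the replicate number as a block, 9 Hox genes and 3537 genes were called, and Hoxa4 (adjusted p = 0.0986, edgeR) and Hoxa9 (0.0625) lost their call. Same-numbered libraries did not deviate together (correlations of -0.214, -0.0997 and 0.0739), and pairs of unlike number ran from -0.12 to 0.192. So few values cannot tell whether a number marks a shared batch.

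Changes of sign were confined to uncalled members near 0. Hoxb2 was -0.03 without a filter and -0.05 with chromosome medians removed, Hoxb5 -0.03 and -0.04, and Hoxb6 0.05 with library size alone and 0.04 with a mean of at least 5 CPM. Without 1 library, log2 fold changes ran from -0.06 to 0.38 for Hoxa3, -0.10 to 0.09 for Hoxb2, -0.04 to 0.19 for Hoxb3, -0.21 to 0.15 for Hoxb5, -0.26 to 0.16 for Hoxb6, -0.04 to 0.30 for Hoxb9, -0.25 to 0.46 for Hoxc5 and -0.21 to 0.29 for Hoxd3. The cause was not tested. Besides these and the calls lost without single libraries, given in the results, Hoxa4 lost its call without a filter (adjusted p = 0.0877, edgeR). Levels near 0.2 CPM, as of Hoxa7, Hoxa9 and Hoxc8 in control, rest on 4 to 14 reads a library and limit their folds.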
